A study of Rattus norvegicus with 3 samples.

Results

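The adrenal cortex surrounds the medulla and turns cholesterol into steroid hormones, and the 10 genes described here carry the cholesterol supply, the enzymes and the main transcription factor of that pathway. They are Star, Cyp11a1, Cyp11b1, Cyp11b2, Cyp21a1, Hsd3b1, Fdx1, Fdxr, Nr5a1 and Scarb1, chosen by name, and a probe set was taken only where the platform annotation gave it to 1 of them alone. By that rule 8 of the 10 genes were measured, of 14217 genes with a probe set of their own, through 12 of 31042 gene probe sets. No probe set was annotated to Fdxr, and Cyp11b2 appeared only on probe sets shared with its close relatives, so neither gene has a value of its own here. The RNA was labelled as adrenal medulla of rats kept in the cold for 7 days (1 array) or for 1 day (2 arrays, replicates a and b). Strain, sex, age and the degree of cold are not given in the labels used here, all 3 arrays come from cold-exposed rats, and no array of rats outside the cold was analysed here. The labels do not say whether arrays a and b came from separate animals or from pools, and their spread, with any p-value that rests on it, may be only technical. The tissue label has the words Multiple Organs in front of the medulla, which were taken as a project name.

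Steroid synthesis begins when cholesterol is taken up from lipoproteins and moved to the inner mitochondrial membrane, where its side chain is cut off to give pregnenolone. Enzymes of the endoplasmic reticulum and the mitochondria then convert pregnenolone step by step, and the last steps differ between the zones of the cortex. Cells of the zona fasciculata use Cyp11b1 to make corticosterone, the main glucocorticoid of the rat, while cells of the outer zona glomerulosa use Cyp11b2 to make aldosterone. Pituitary ACTH, whose release grows under stress, drives the pathway in the fasciculata, and chromaffin cells of the medulla do not make these steroids.

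Nr5a1 encodes steroidogenic factor 1, a nuclear receptor that binds DNA sites with an AGGTCA-type core, and it regulates steroid enzyme genes. The bases upstream of 3 members are shown because they hold this core, with the core in capitals. They were taken from RefSeq promoter windows of assembly GRCr8, were searched over 250 bases before the annotated start on both strands, and are printed 5′ to 3′ only as far as the gene's own span.
Cyp11a1, plus strand, chr8:67318415-67318664: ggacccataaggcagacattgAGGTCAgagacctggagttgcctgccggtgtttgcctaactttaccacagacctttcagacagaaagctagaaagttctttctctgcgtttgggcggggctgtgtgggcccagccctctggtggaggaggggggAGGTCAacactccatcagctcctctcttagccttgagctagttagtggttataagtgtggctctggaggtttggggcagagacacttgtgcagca
Cyp21a1, plus strand, chr20:4028141-4028322: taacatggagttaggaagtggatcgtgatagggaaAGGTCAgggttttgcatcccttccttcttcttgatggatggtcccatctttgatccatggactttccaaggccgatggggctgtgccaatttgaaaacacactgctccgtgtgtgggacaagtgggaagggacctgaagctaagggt
Fdx1, minus strand, chr8:61183646-61183895: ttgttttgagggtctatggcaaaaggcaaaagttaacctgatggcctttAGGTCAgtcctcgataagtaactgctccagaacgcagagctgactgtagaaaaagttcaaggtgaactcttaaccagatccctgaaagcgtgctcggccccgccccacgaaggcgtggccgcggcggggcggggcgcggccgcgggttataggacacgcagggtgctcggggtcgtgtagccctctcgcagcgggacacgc
The core AGGTCA or its reverse complement was present in 3 of the 6 members' windows in the table (2 copies for Cyp11a1) and was not found in those of Hsd3b1, Fdxr and Nr5a1. It was present in 14.1% of all 33469 windows. A match of 6 letters is a description of the sequence and does not show binding.

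The 3 arrays were not of like quality, which bears on every value below. For beta-actin, the 3′ probe set read 8.87 times the 5′ one on the 7-day array, against 231 times on 1-day array a and 6.11 times on 1-day array b. A high ratio is known to mark broken or incompletely copied RNA. Across gene probe sets the 7-day array had a Spearman correlation of 0.939 with 1-day array b and 0.684 with 1-day array a, and the 1-day pair had 0.664, given as a description of the arrays. The 7-day values are therefore set against each 1-day array, and the part of RNA quality in their differences was not tested.

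Genes of the cortex were among the brightest probe sets in this medulla-labelled RNA. Of the 12 member probe sets, 8 lay above the 99th percentile of intensity on the 7-day array, against 7 on 1-day array a and 8 on 1-day array b. The brightest probe sets of Star, Cyp11a1, Cyp21a1, Hsd3b1, Fdx1 and Scarb1 were above that mark on each of the 3 arrays. Cyp11b1 stood at percentile 98.72 on the 7-day array, against 59.85 and 97.9 on 1-day arrays a and b. The bright Nr5a1 probe set stood at 95.84, against 91.97 and 94.66. Nr0b1, a listed cortex marker that is not a member, was dim at percentile 26.85, against 56.58 and 28.1 in the same order. A percentile gives a probe set's place on its own array, and since probe sets differ in how well they bind it does not rank the genes by RNA.

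Defining genes of chromaffin cells were also at the bright end. Th, the tyrosine hydroxylase at the start of catecholamine synthesis, read 224786 on the 7-day array, against 79575 and 193597 on 1-day arrays a and b. Of 11 measured chromaffin markers 5 exceeded the 99th percentile on each of the 3 arrays, so the medulla label has its markers and the cortex markers stood beside them. Probe sets for gonadal steroid cells were dim, with 4 of 4 genes under the 50th percentile on the 7-day array, against 3 of 4 on 1-day array a and 4 of 4 on 1-day array b. Among them Cyp17a1, an enzyme needed for androgens and cortisol and hardly used in the rat adrenal, read 119 on the 7-day array, against 70.5 and 66.0 on 1-day arrays a and b. In bulk RNA, fewer cells of a type and less RNA per cell cannot be told apart, and how much cortex the dissected tissue held was not measured.

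**Figure D1:**
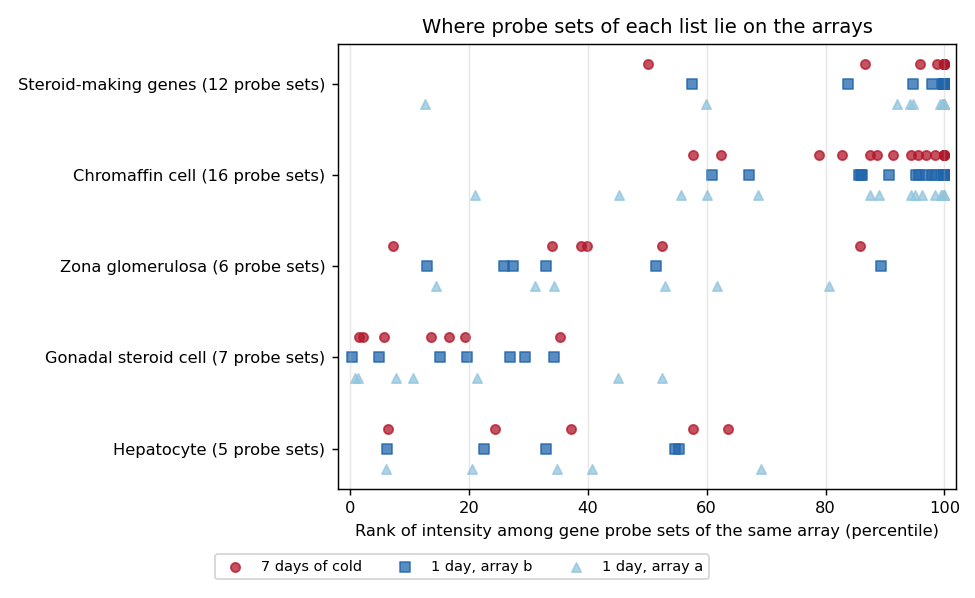
Each point is 1 probe set, placed by the percentile rank of its intensity among the 31042 gene probe sets of the same array (x axis), for 5 gene lists (rows) on the 7-day array (circles), 1-day array b (squares) and 1-day array a (triangles). Most probe sets of the steroid-making and chromaffin lists crowd at the bright end, and those of gonadal steroid cells reach no higher than percentile 52.5 on any array.

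Scarb1 encodes the receptor that takes up cholesterol from high-density lipoprotein, the main cholesterol source of the rat adrenal. Its brighter probe set by mean read 151029 on the 7-day array, against 56517 and 107334 on 1-day arrays a and b. The other probe set of Scarb1 read 154238 on the 7-day array, against 10699 and 122353 on 1-day arrays a and b. On both, the 7-day array was the highest and 1-day array a the lowest, but the gap to array a was 3.85 on the log2(intensity + 16) scale by one probe set and 1.42 by the other, for the same RNA.

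Star moves cholesterol to the inner mitochondrial membrane, the step that limits the rate of acute steroid synthesis. Its brighter probe set read 277066 on the 7-day array, against 602316 and 208111 on 1-day arrays a and b. The other read 192968 on the 7-day array, against 91954 and 140061 on 1-day arrays a and b. The 7-day array exceeded array b on both probe sets, while against array a one probe set put it lower (log2 difference -1.12) and the other higher (1.07). The order of 7 days and array a for Star was thus not settled by its own probe sets. On the 7-day array and array b the brighter one was also near the highest intensity of any gene probe set, 287083 and 231933. On array a that highest intensity was 1153248, against 602316 for Star.

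Cyp11a1, the side-chain cleavage enzyme that makes pregnenolone, read 199562 on the 7-day array, against 156227 and 154155 on 1-day arrays a and b. Its 1-day values lay close together, and the 7-day value was above both, by 0.35 and 0.37 on the log2 scale. Among the members, its 1-day arrays differed least, by 0.02 (log2, array a minus array b).

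Fdx1 encodes adrenodoxin, the iron-sulphur protein that hands electrons to the mitochondrial enzymes Cyp11a1, Cyp11b1 and Cyp11b2. Fdxr, which reduces adrenodoxin, was not measured. The brighter Fdx1 probe set read 252658 on the 7-day array, against 471027 and 189657 on 1-day arrays a and b. A dimmer one read 5803 on the 7-day array, against 9839 and 4796 on 1-day arrays a and b. Both probe sets gave the same order of the arrays, with array a highest and array b lowest.

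Hsd3b1 stands for the 3-beta-hydroxysteroid dehydrogenases, which turn pregnenolone into progesterone. Its probe set read 214950 on the 7-day array, against 349642 and 164869 on 1-day arrays a and b. The gene behind this probe set is uncertain, since the platform gives it to Hsd3b1 while its source transcript is listed under Hsd3b2 in RefSeq today. A probe set shared by Hsd3b1, Hsd3b2 and Hsd3b3 read 2663 on the 7-day array, against 1679 and 2687 on 1-day arrays a and b, and cannot be assigned to one of them.

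Cyp21a1, the 21-hydroxylase that makes 11-deoxycorticosterone from progesterone, read 182108 on the 7-day array, against 314767 and 142187 on 1-day arrays a and b. As for Hsd3b1 and Fdx1, the 7-day value lay between the 1-day values. For these genes the sign of the difference from 1 day depends on which 1-day array is used.

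Nr5a1 had a bright and a dim probe set. The bright one read 18574 on the 7-day array, against 7458 and 14677 on 1-day arrays a and b. The dim one read 678 on the 7-day array, against 225 and 930 on 1-day arrays a and b, and was the only member probe set that did not pass the filter on low values. It was also the only one on which the 7-day array read below 1-day array b (-0.45, against 0.34 on the bright one), so the probe sets of Nr5a1 disagreed in sign.

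**Figure D2:**
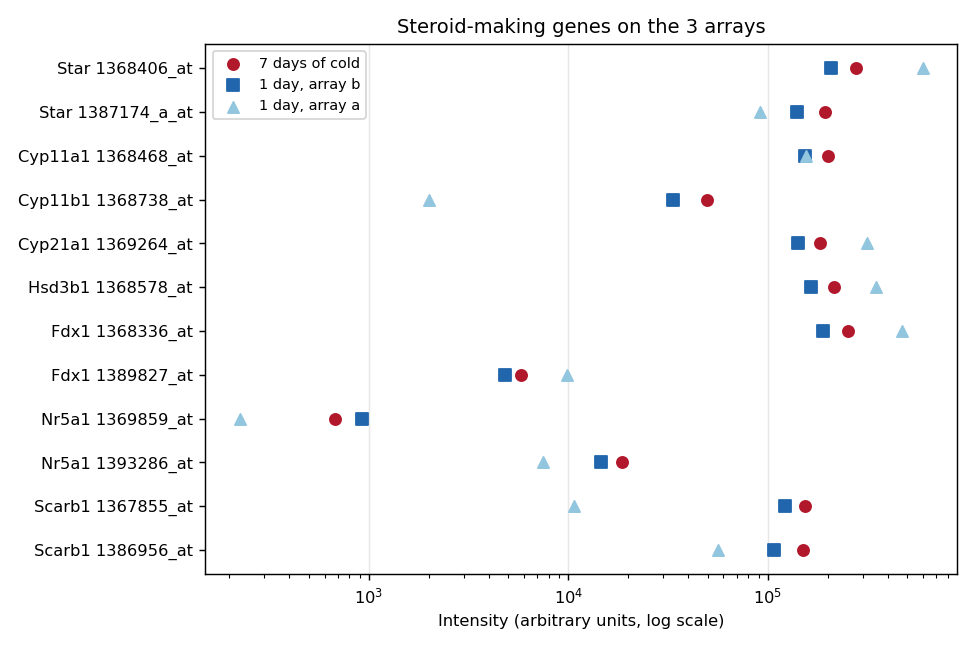
Intensity of the 12 member probe sets (rows) on a log axis in arbitrary units, 1 point per array: 7 days of cold (circles), 1-day array b (squares) and 1-day array a (triangles). The circle lies just right of the square in 11 rows, and the triangle lies to either side, as for Cyp11b1 at 2012 and Star at 602316, and on the square for Cyp11a1.

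Cyp11b1, the 11-beta-hydroxylase of the zona fasciculata, had 1 probe set of its own and parted the 1-day arrays the most among the members. It read 49727 on the 7-day array, against 2012 and 33603 on 1-day arrays a and b. The 7-day array was above both, 24.7-fold over array a but 1.48-fold over array b. The difference from array a therefore cannot be read apart from the difference between the 1-day arrays, which was itself 16.7-fold.

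Cyp11b2, the aldosterone synthase of the zona glomerulosa, could not be set against Cyp11b1 on a probe set of its own. The 2 genes are close relatives on one chromosome, with Cyp11b3 between them, and share probe sets. A probe set annotated to Cyp11b1 and Cyp11b2 together read 141747 on the 7-day array, against 76828 and 88529 on 1-day arrays a and b, and cannot be assigned to either gene. A probe set annotated to Cyp11b1, Cyp11b3 and Cyp11b2 read 38017 on the 7-day array, against 2440 and 24900 on 1-day arrays a and b. It has the same source sequence in the platform annotation as the probe set of Cyp11b1 alone, so the pair are not independent readings. The probe set annotated to Cyp11b1 and Cyp11b3 was dim, at 31.2 on the 7-day array, against 275 and 58.3 on 1-day arrays a and b.

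The Cyp11b1 probe set and the bright shared ones all read higher on the 7-day array than on 1-day array b. The log2 difference was 0.57 for Cyp11b1, 0.68 for the probe set shared with Cyp11b2 and 0.61 for the one shared by all 3 genes, while the dim one shared with Cyp11b3 alone stood at -0.65. The change of Cyp11b1 less that of the probe set shared with Cyp11b2 was -0.11 against array b, 3.73 against array a and 1.81 against their mean, so the value against the mean rests on array a. These data thus give no separate reading of the fasciculata and glomerulosa enzymes. Of 6 zona glomerulosa genes, 5 had probe sets, and the highest, Dab2, reached percentile 85.8 on the 7-day array, against 80.5 and 89.4 on 1-day arrays a and b. Dab2 read 5423 on the 7-day array, against 3667 and 7632 on 1-day arrays a and b. By their brightest probe sets, the other 4 read above array b on the 7-day array, where 57.0% of all gene probe sets did, and Dab2 alone below it. Against array a the order was turned, with those 4 lower on the 7-day array and Dab2 higher. Only 2 of the 5 passed the filter on low values. Under the 50th percentile were 3 of the 5 on the 7-day array, against 2 and 3 on 1-day arrays a and b.

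**Figure D3:**
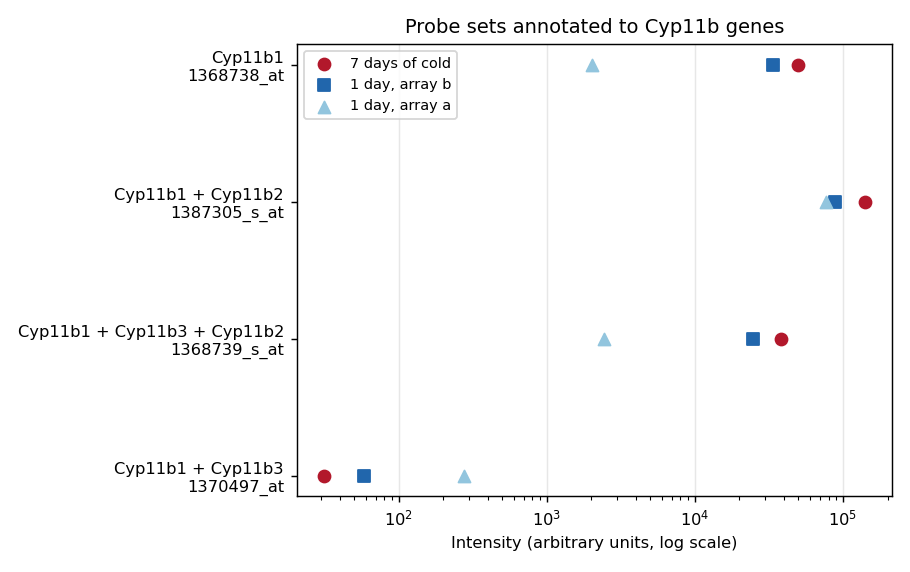
Intensity on a log axis in arbitrary units of the 4 probe sets annotated to Cyp11b genes (rows), on the 7-day array (circles), 1-day array b (squares) and 1-day array a (triangles). Array a stands far below the others for Cyp11b1 alone (2012) and near them for the probe set shared by Cyp11b1 and Cyp11b2 (76828).

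Setting 7 days against 1 day of cold asked whether the pathway's genes differ with the length of exposure. Limma, fitted on 15521 probe sets past the filter, called 0 of them (0% called), with 70 at an unadjusted p under 0.05, and called 0 of the 11 member probe sets past the filter. The adjusted p was 1.00 for each of those 11. The fit has 1 residual degree of freedom, from the 1-day pair, and assumes that the lone 7-day array varies like the 1-day arrays. Its estimate was 2.59 ± 0.98 for Cyp11b1, 2.09 ± 1.07 and 0.96 ± 1.10 for the probe sets of Scarb1 and 0.36 ± 1.15 for Cyp11a1 (log2, 7 days minus 1 day, ± SE). Each SE is the spread fitted at that intensity and does not measure the probe set's own spread. The SD of the 1-day pair was 2.86 for Cyp11b1, 2.48 and 0.65 for the Scarb1 probe sets in that order and 0.01 for Cyp11a1 (log2). For Star the estimates were -0.35 ± 1.20 and 0.77 ± 1.13, of opposite sign. Past the filter, the log2 difference between the 1-day arrays had an SD of 1.43. That between the 7-day array and array b had an SD of 0.39. The spread used by the fit thus takes in the gap between arrays a and b, and a lack of calls does not show that the genes were unchanged.

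By order alone, 6 of the 12 member probe sets read above both 1-day arrays at 7 days, where 18.8% of all gene probe sets did, and 0 read below both, where 27.6% did. Those 6 were the probe sets of Cyp11a1, Cyp11b1 and Scarb1, the dimmer one of Star and the bright one of Nr5a1. Against array a alone, 7 of the 12 read higher, beside 34.2% of all. The median log2 difference over the 8 genes, each by its brightest probe set, was 0.10 from the mean of the 1-day arrays, -0.17 from array a and 0.40 from array b. Over all gene probe sets the medians in that order were -0.20, -0.71 and 0.08. Over probe sets past the filter, which 11 of the 12 member probe sets passed, the medians were -0.03, -0.095 and 0.0005. The shares of 18.8%, 27.6% and 34.2% are over all gene probe sets, dim ones included. Over all 12 member probe sets the median log2 differences, in the order above, were 0.45, 0.71 and 0.38. The sign of the group's median against array a thus depends on which probe sets stand for the genes.

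Against 1-day array b alone, the array most like it, the 7-day array read higher for 11 of the 12 member probe sets, where 57.0% of all gene probe sets were higher. This sets 1 array against 1 and has no replicate check, so it compares those arrays and not the lengths of exposure. The 11 differences spanned a narrow range, 0.27 to 0.57 on the log2 scale, with Cyp11b1 highest, Scarb1 at 0.49 and 0.33, Star at 0.46 and 0.41, Fdx1 at 0.41 and 0.27, Hsd3b1 at 0.38, Cyp11a1 at 0.37 and Cyp21a1 at 0.36. None of the 12 was 2-fold higher, a mark that 14.9% of all gene probe sets met, many of them dim. Among probe sets past the filter the upper quartile of this difference was 0.21 and the 90th percentile 0.46.

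Bright probe sets in general read higher on the 7-day array than on array b. The loess trend on intensity ran between 0.16 and 0.22 at the intensities of Star, Cyp11a1, Cyp21a1, Hsd3b1, Scarb1 and the brighter Fdx1 probe set. With it removed, 11 of 12 member probe sets were above 0, at 0.16 to 0.51. With quantile normalisation of these arrays only, the same number was above 0, but Cyp11a1 came down to 0.04, Star to 0.08 on its brighter probe set, Cyp21a1 to 0.09 and Hsd3b1 to 0.09, while Cyp11b1 stood at 0.52. Chromaffin markers gave a median of 0.20 over 11 genes as scaled, with 6 of 11 higher, and -0.01 with the trend removed. Among them Th, Dbh, Pnmt, Chga and Chgb stood at 0.20 to 0.35 as scaled, which became -0.09 to 0.03 with quantile normalisation of these arrays only. Hand2 stood at 0.26, and at -0.75 on a second probe set. Below array b were 5 of the 11, with Ddc at -0.23 (0.14 on a second probe set), Phox2a at -0.47, Slc18a1 at -0.40 and Slc18a2 at -0.48. Gata3, a transcription factor of chromaffin cells, was the lowest of these at -0.88, and stood at -0.37 on a second probe set. With quantile normalisation of these arrays only, 2 of the 11 markers were above 0, Pnmt and Chgb stood at 0 and the others were below. That setting gives equal ranks equal values, so Chgb, the brightest gene probe set on both arrays, was fixed at 0. It bears in the same way on the bright members, whose ranks were nearly equal on the 2 arrays. The difference between the lists was not tested, since each rests on the same pair of arrays.

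**Figure D4:**
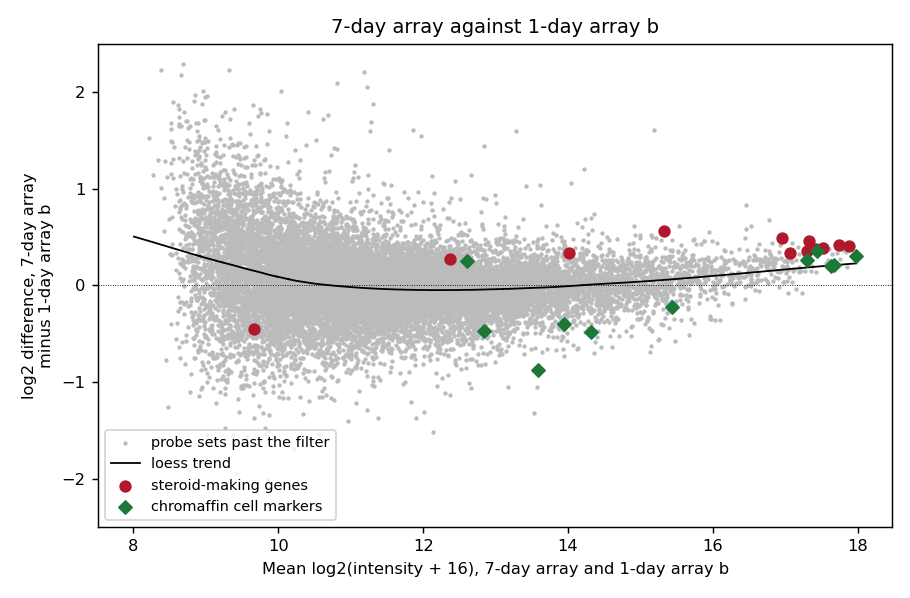
The log2 difference of the 7-day array minus 1-day array b (y axis) against mean log2(intensity + 16) of those arrays (x axis), for probe sets past the filter (grey, 7 outside the plotted range), 12 member probe sets (red circles) and 11 chromaffin markers (green diamonds), with the loess trend as a line. Apart from the dim Nr5a1 probe set at -0.45, members lie above the line, which itself climbs at the bright end.

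Other genes of steroid synthesis, its control and its cholesterol supply were read from a list of 39 genes, of which 31 had a probe set of their own and 21 passed the filter. Limma called 0 of the 21. At 7 days 12 of the 31 read above both 1-day arrays (18.8% of all gene probe sets did) and 5 below both (27.6%). Of the 21 past the filter, 9 read above both and 3 below both. The shares are over all gene probe sets, dim ones included, while each gene here is represented by its brightest probe set. Above array b were 21 of 31, beside 57.0% of all, with a median log2 difference of 0.15 from that array, which became -0.03 with median centring of the arrays. The ACTH receptor gene Mc2r was not among those measured.

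Mrap, the accessory protein that brings the ACTH receptor to the cell surface, read 77980 on the 7-day array, against 49197 and 63698 on 1-day arrays a and b. Akr1b7, an aldose reductase-like enzyme of rodent adrenal cortex, read 227363 on the 7-day array, against 165921 and 175170 on 1-day arrays a and b. Both were above both 1-day arrays, by 0.29 and 0.38 on the log2 scale from array b. Tspo, a cholesterol-binding protein of the outer mitochondrial membrane, stood 0.26 above array b, and Hsd11b2, which inactivates glucocorticoids, 0.21 above it. With median centring Tspo came to 0.08 and Hsd11b2 to 0.03, and Akr1b7 came to 0.09 with quantile normalisation of these arrays only.

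The StAR-related cholesterol carrier Stard4 was the highest of the list among genes past the filter by its distance from the nearer 1-day array, at 5391 on the 7-day array against 3697 and 3945 on 1-day arrays a and b. Its other probe sets differed, with 745 on the 7-day array against 2484 and 285 on 1-day arrays a and b for one, and 2514 against 2292 and 2133 in the same order for the other. Melk, a mitotic kinase gene, and Cyp17a1 were further from the nearer array but were dim and did not pass the filter, at 331 and 119 on the 7-day array. Por, which feeds electrons to Cyp21a1, stood at 0.15 from array b and Soat1, which stores cholesterol as esters, at 0.11, and both turned negative with median centring (-0.03 and -0.07). Lipe, which frees cholesterol from its esters, stood at -0.01 and took a positive sign with quantile normalisation (0.03). Second probe sets of Por, Soat1 and Lipe stood at -0.01, -0.19 and 1.31 from array b. At the low end were Hsd17b3 and Cyp19a1, gonadal enzymes at 20.9 and 82.6 on the 7-day array, and Acbd3, a partner of Tspo, at -0.19 from array b. Hsd17b3 and Cyp19a1 did not pass the filter on any probe set, and other Cyp19a1 probe sets stood at 0.55 and 2.98 from array b. Other Acbd3 probe sets stood at -0.11 and 0.11 from it. Nr0b1, a repressor of steroid genes that acts on Nr5a1, was dim at 256 on the 7-day array, against 1859 and 191 on 1-day arrays a and b, and stood at 0.39 from array b, or -0.10 with quantile normalisation.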

How the data were processed

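The deposited table of these one-colour oligonucleotide arrays holds linear intensity, summarised by the authors to 1 value for each probe set on each array. How they did so is not given in the sources used. Trimmed means (2% off each end) were nearly equal on the 3 arrays, so total signal appears scaled to a common value and a difference in total RNA is not visible. Groups and replicate letters came from the sample titles. The 57 control probe sets were left out, and values were taken as log2(intensity + 16), which shrinks differences of dim probe sets. The 31042 gene probe sets had symbols from the platform annotation, updated by Entrez identifier to RefSeq (GRCr8, names only), with 20826 of them given to 1 gene.

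Limma 3.58.1 in R 4.3.3 (lmFit, eBayes with intensity trend, two-sided, Benjamini-Hochberg at 0.05) was fitted on the 15521 probe sets whose mean was at or above the median, and was tested on simulated data. The prior degrees of freedom were infinite, and each SE is the spread fitted at that intensity. The members, lists and tests were chosen with earlier results of these data known. Named genes were all members, 12 pathway genes fixed by name, and the 3 highest and 3 lowest of the pathway list by distance from the nearer 1-day array. A gene was represented by its probe set of highest mean. The planned contrast of Cyp11b1 with Cyp11b2 used the probe set shared by both, as Cyp11b2 had none alone. Also tried were pseudocounts of 1 and 64, quantile normalisation, median centring, loess detrending (span 0.5), no filter, a 75th percentile filter, limma without trend or robust, the mean of a gene's probe sets, and leaving out each 1-day array. Those against array b alone were added after seeing the data. Precision is limited by having 3 arrays. Figures used Python 3.11.15 and matplotlib 3.10.9.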

Additional observations from a re-analysis of the deposited data

How the results depend on the processing

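Limma called 0 probe sets under each alternative tried (other pseudocounts, quantile normalisation, median centring, no filter or a stricter one, no trend, robust). Each of those fits kept array a, so none is a check apart from it. The median of the 8 steroid-making genes was 0.10 from the mean of the 1-day arrays. This median became 0.62 with median centring, 0.42 with quantile normalisation and 0.28 with the mean of each gene's probe sets. It was -0.28 with the loess trend removed, and ran from -0.17 to 0.40 when 1-day array b or a was left out. The pathway list's median of 0.19 became 0.70 with median centring, and its 0.15 from array b became -0.031. The change of Cyp11b1 less that of the probe set shared with Cyp11b2 (1.81) ran from -0.11 without array a to 3.73 without array b, and the -0.11 from array b became 0.024 with quantile normalisation of these arrays only.

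Among single members, signs against the 1-day mean turned as follows. With quantile normalisation Star (brighter probe set) stood at 0.40, Cyp21a1 at 0.062, Hsd3b1 at 0.13 and Fdx1 (brighter) at 0.29. With median centring these stood at 0.16, 0.30, 0.35 and 0.27, and the dimmer Fdx1 probe set at 0.27. Cyp11a1 turned to -0.021 with the loess trend removed. With 1 of the 1-day arrays left out, Star ran from -1.12 to 0.41, Cyp21a1 from -0.79 to 0.36, Hsd3b1 from -0.70 to 0.38, the Fdx1 probe sets from -0.90 to 0.41 and -0.76 to 0.27, and the dim Nr5a1 probe set from -0.45 to 1.52. Against array b alone, 0 of 72 member values under the added settings turned sign. That count includes the changed pseudocounts, which cannot turn the sign of a difference between single arrays. For those values it is therefore no check, and only the normalisation, centring and loess settings could have turned a sign. The cause of the turns against the 1-day mean was not tested. No paired analysis was possible because the groups share 1 replicate letter only.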
